A study of Mus musculus with 3 samples.

Results

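The endothelial glycocalyx genes described here are the genes of heparan sulfate, hyaluronan and the sialomucins, the sugar-rich coat that lines the inside of blood vessels. The list holds 46 genes for core proteins and for the enzymes of synthesis, sulfation and breakdown, out of 19938 genes that a probe set of their own names on the array. A gene was counted as measured where a probe set names it and no other gene. This held for 44 of the 46, each with 1 probe set, and Ndst1 and Hyal1 were not analysed here. All 3 arrays, replicates 1, 3 and 5, came from glomerular endothelial cells of adult Tie2-GFP mice (Tg(TIE2GFP)287Sato) on a mixed background, primarily CD-1, with 1 kidney per array, no pooling and no treatment named. The cells were green fluorescent, sorted from sieved glomeruli. The Tie2 promoter that drives the reporter is also active in some blood cells. With a single group there is no contrast between conditions, so each gene was set against a level of 100 on the deposited scale, 6.64 as a log2 value. This is the number that the study used to filter raw values.

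Heparan sulfate is a chain of alternating sugars, built on a serine of a core protein through a short linker, extended by exostosins and then modified by deacetylases, an epimerase and sulfotransferases. The pattern of sulfate groups decides which proteins the chain can hold, among them growth factors, lipases and antithrombin. Syndecans span the membrane, glypicans are tied to it by a lipid anchor, and hyaluronan is a chain without a core protein that is made at the membrane and held by receptors such as Cd44. Sialomucins are surface proteins densely covered with O-linked sugars that end in sialic acid, and their negative charge keeps surfaces apart. In the glomerulus this coat is a layer of the filtration barrier.

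The sorted cells carried the defining genes of endothelium. All 10 endothelial markers on the list, among them Tek, Pecam1 and Cdh5, were called above 100, and 8 of the 10 had their lowest value on replicate 3. Their summed signal on the linear scale was 12150, 8148 and 13973 on replicates 1, 3 and 5. No marker of podocytes (6 measured), mesangial cells and other stroma (10), tubules (8) or leukocytes (8) was called above 100, and all were called below it. Over all 21789 probe sets that name 1 gene, 15.8% were called above 100 and 72.5% below it. Their summed signals ranged over the arrays from 206 to 226 for podocytes, from 296 to 343 for stroma, from 207 to 216 for tubules and from 183 to 193 for leukocytes. Nphs1 and Wt1 of podocytes had 5.47 and 5.24, Pdgfrb and Itga8 of mesangial cells 4.22 ± 0.25 and 5.26 ± 0.72, and Ptprc of leukocytes 4.77 ± 0.18 (log2 signal, mean ± SD, n = 3). In such bulk RNA, fewer cells of a type and less RNA per cell cannot be told apart.

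Most glycocalyx genes lay below the level. Of the 44 measured, 5 (11.4%) were called above 100 by limma at an adjusted p under 0.05, 35 (79.5%) below it and 4 neither. In the whole set of 21789 single-gene probe sets, 15.8% were above and 72.5% below, so these shares were near the background. The median of the 44 mean levels was 5.06 and that of all probe sets 5.04 (log2 signal). The genes above were the sialomucin genes Emcn, Podxl and Cd34, the heparan sulfate polymerase gene Ext2 and the hyaluronidase gene Hyal2. Those called neither were the linker gene B3gat3, the epimerase gene Glce, the sulfotransferase gene Hs3st3b1 and the sulfatase gene Sulf2. A difference in signal between probe sets also holds differences in how well probes bind, so each gene is read against the level and not against other genes.

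**Figure D1:**
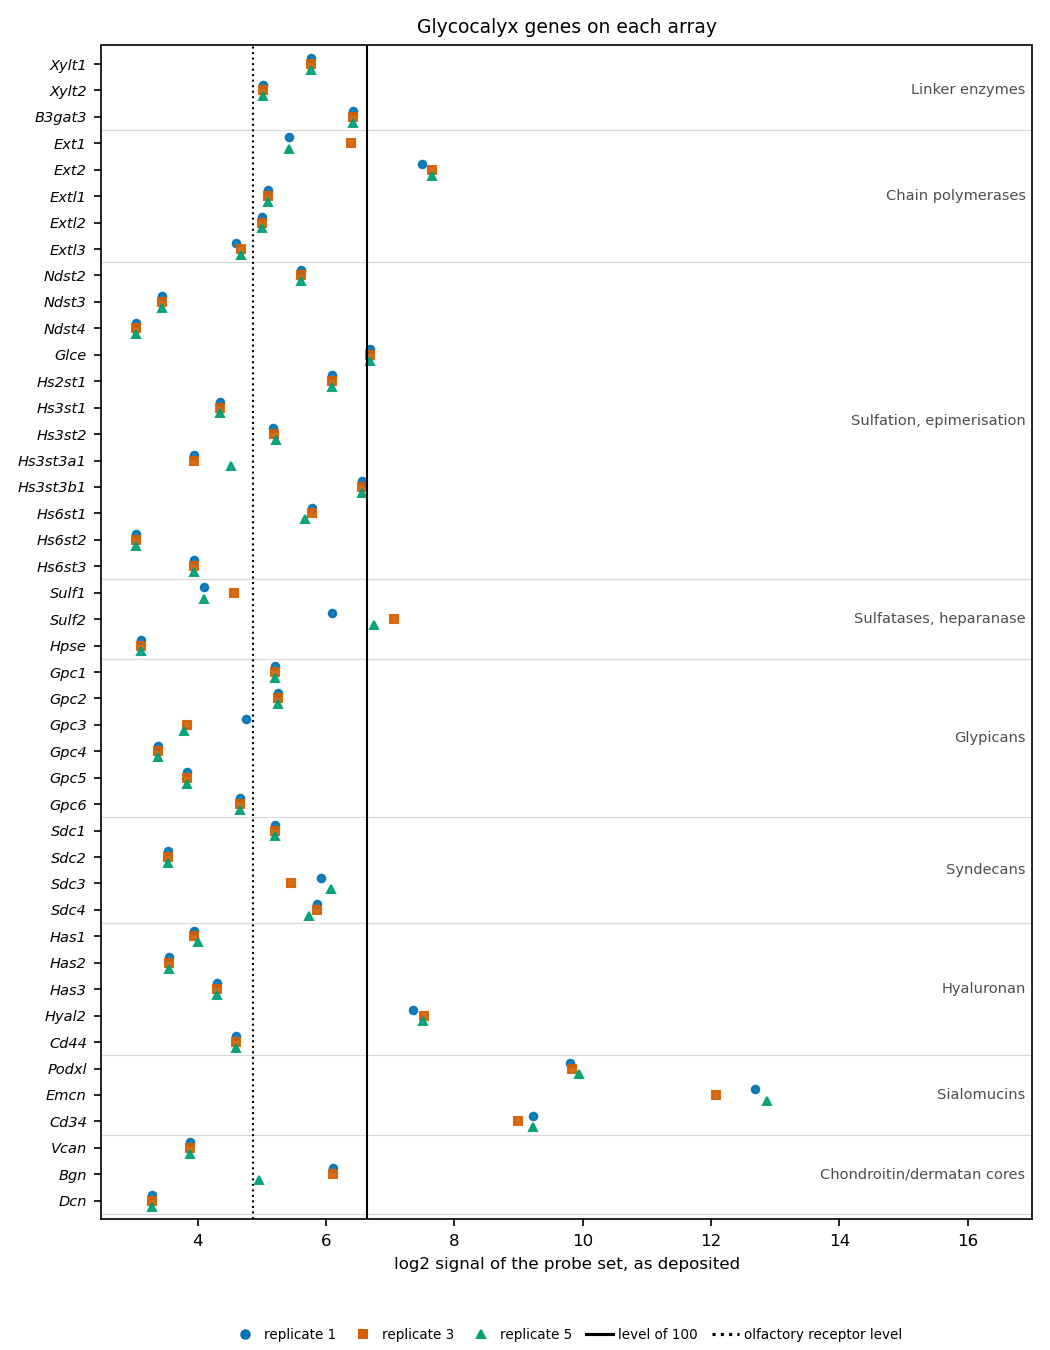
Log2 signal of the 44 measured glycocalyx genes (rows, grouped by role) on replicates 1, 3 and 5 (points), with the level of 100 at 6.64 (solid line) and the level of olfactory receptor probe sets at 4.85 (dotted line). All points of Podxl, Emcn, Cd34, Ext2 and Hyal2 lie right of the solid line, while all points of the 6 glypican and 4 syndecan genes lie left of it.

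All 3 sialomucin genes were called above 100, where 15.8% of all probe sets were, and no other role had all its members above. Emcn encodes endomucin, a sialomucin of capillary and venous endothelium. It had 12.69, 12.07 and 12.87 on replicates 1, 3 and 5 (mean 12.54 ± 0.42 SD, n = 3, 5.90 above the level, limma adjusted p = 6.88e-05). Replicate 3 was lowest, at a distance from the level that is many times the spread of the arrays. Podxl encodes podocalyxin, the sialomucin first described on podocytes and also carried by vascular endothelium. Its values were 9.81, 9.84 and 9.95 (9.86 ± 0.08, adjusted p = 6.94e-05), nearly the same on each array. The other podocyte genes measured were all called below 100, as given above. Cd34, a sialomucin of endothelium and blood progenitors that serves as a ligand of L-selectin once it is suitably glycosylated, had 9.23, 8.98 and 9.23 (9.15 ± 0.14, adjusted p = 0.000117). Its lowest value was again on replicate 3. All 8 leukocyte markers, Ptprc among them, were called below 100.

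The stretch before the transcription start is shown for the members above 100 that the RefSeq promoter table holds, because these are the genes on which the counts above turn. Podxl is not among them. Each line gives 250 bases on the gene's own strand, 5′ to 3′, ending at the base before the start (GRCm38.p6, coordinates 1-based). Matches to TTCCTG, an ETS-type motif, or to its reverse complement CAGGAA are in capitals. Shorter or other forms of ETS-type sites were not searched. Emcn lies at chr3:137340828-137341077 on the plus strand, Cd34 at chr1:194938571-194938820 on the plus strand, Ext2 at chr2:93822569-93822818 on the minus strand and Hyal2 at chr9:107568913-107569162 on the plus strand.
Emcn: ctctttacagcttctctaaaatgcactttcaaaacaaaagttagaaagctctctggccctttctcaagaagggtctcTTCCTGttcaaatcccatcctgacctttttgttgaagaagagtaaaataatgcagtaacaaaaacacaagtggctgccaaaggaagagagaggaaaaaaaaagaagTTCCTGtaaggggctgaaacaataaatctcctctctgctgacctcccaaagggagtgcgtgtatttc
Cd34: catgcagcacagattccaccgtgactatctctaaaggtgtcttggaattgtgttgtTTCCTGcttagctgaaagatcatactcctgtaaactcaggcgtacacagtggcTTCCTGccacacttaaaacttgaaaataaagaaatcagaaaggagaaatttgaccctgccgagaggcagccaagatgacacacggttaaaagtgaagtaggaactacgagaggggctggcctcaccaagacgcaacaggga
Ext2: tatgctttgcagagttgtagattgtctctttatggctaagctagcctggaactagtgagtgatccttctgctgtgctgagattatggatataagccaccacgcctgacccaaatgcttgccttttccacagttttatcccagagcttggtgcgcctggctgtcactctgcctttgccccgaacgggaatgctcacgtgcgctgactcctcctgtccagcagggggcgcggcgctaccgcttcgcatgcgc
Hyal2: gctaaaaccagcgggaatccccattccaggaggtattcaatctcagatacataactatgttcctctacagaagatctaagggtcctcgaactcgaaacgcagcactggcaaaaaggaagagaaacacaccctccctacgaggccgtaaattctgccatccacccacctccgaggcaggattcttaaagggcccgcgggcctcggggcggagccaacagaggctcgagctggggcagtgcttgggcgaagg
Emcn and Cd34 each held 2 matches, which began 173 and 67 bases before the start in Emcn and 194 and 141 bases before it in Cd34. Ext2 and Hyal2 held no match to TTCCTG or CAGGAA, which does not show that they lack other forms of the site. Over all 32851 promoters of this length in the table, 25.7% held at least 1 match on either strand. For the 33 glycocalyx genes in the table, it was 9 of 37 promoters (24.3%). The GC content was 40.8% for Emcn, 46.4% for Cd34, 54.8% for Ext2 and 55.6% for Hyal2. A match is a description of these letters and no evidence that a factor binds there.

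Genes that make or anchor sialomucins were taken from lists of related genes. The 12 lists also cover genes of heparan sulfate, hyaluronan and chondroitin sulfate, sheddases and heparan sulfate ligands. Across all 12 lists, 26 of 141 measured genes (18.4%) were called above 100 and 93 (66.0%) below. These shares were near the background of all probe sets, 15.8% and 72.5%. Among cytoplasmic partners of podocalyxin, which tie it to actin, 3 of 5 were above. The adaptor gene Slc9a3r2 had 10.98 on each array, and the linker genes Rdx and Msn, for radixin and moesin, had means of 10.30 ± 0.13 and 9.56 ± 0.10. Ezr, for ezrin, the third of that family, was called below 100 at 6.24 ± 0.17, with 6.15, 6.13 and 6.43. The other adaptor gene, Slc9a3r1, was neither, at 6.25, 6.79 and 6.25.

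Of 8 other sialomucins and surface mucins, only Cd164 and Cd24a were called above (25.0%, against 15.8% of all probe sets). Cd164, for a sialomucin also called endolyn, had 10.28, 9.49 and 9.71. Cd24a had 12.91, 12.83 and 12.73. Podxl2, the gene most akin to Podxl, had 4.51 on each array, and Selplg, for the ligand of P-selectin, had 4.85, 4.85 and 5.19, both called below.

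The sialic acid route was measured at several steps. Of 25 genes for the synthesis, transfer and removal of sialic acid, 4 were above, 16 below and 5 neither. The share above was near the background, as 15.8% of all probe sets were above and 72.5% below. Gne, the entry enzyme of sialic acid synthesis, had 8.02, 8.01 and 8.02 (adjusted p = 0.000502). St3gal1, which caps the core O-glycan with sialic acid, had 9.71, 9.53 and 9.97, and a second probe set of that gene had 5.51 on each array, so the probe sets of St3gal1 disagree. St8sia4, a polysialyltransferase gene, was at 8.16 ± 0.02 and St3gal6 at 7.08 ± 0.10. Nans, the next step after Gne, was below, with 5.62, 5.02 and 5.77. St6galnac2, a sialyltransferase gene for O-glycans, had 6.26, 7.54 and 5.60, with only replicate 3 over the level.

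The start and extension of mucin O-glycans gave 4 of 16 genes (25.0%) above, 7 (43.75%) below and 5 neither, against 15.8% and 72.5% of all probe sets. C1galt1, for the enzyme that builds the core 1 sugar, was neither at 6.57 ± 0.16, and C1galt1c1, for the chaperone that this enzyme needs, was above at 9.16 on each array. B4galt1 was at 7.84 ± 0.07 and Galnt1, for an enzyme that adds the innermost sugar, at 7.35 ± 0.16. Gcnt1, which makes the branched core 2, ranged from 6.92 on replicate 5 over 7.79 on replicate 1 to 8.83 on replicate 3. Its call above 100 (adjusted p = 0.0465) was lost with the default variance prior of limma (adjusted p = 0.114). Galnt7 ranged the other way, with 7.92, 6.53 and 8.32, and was called neither.

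**Figure D2:**
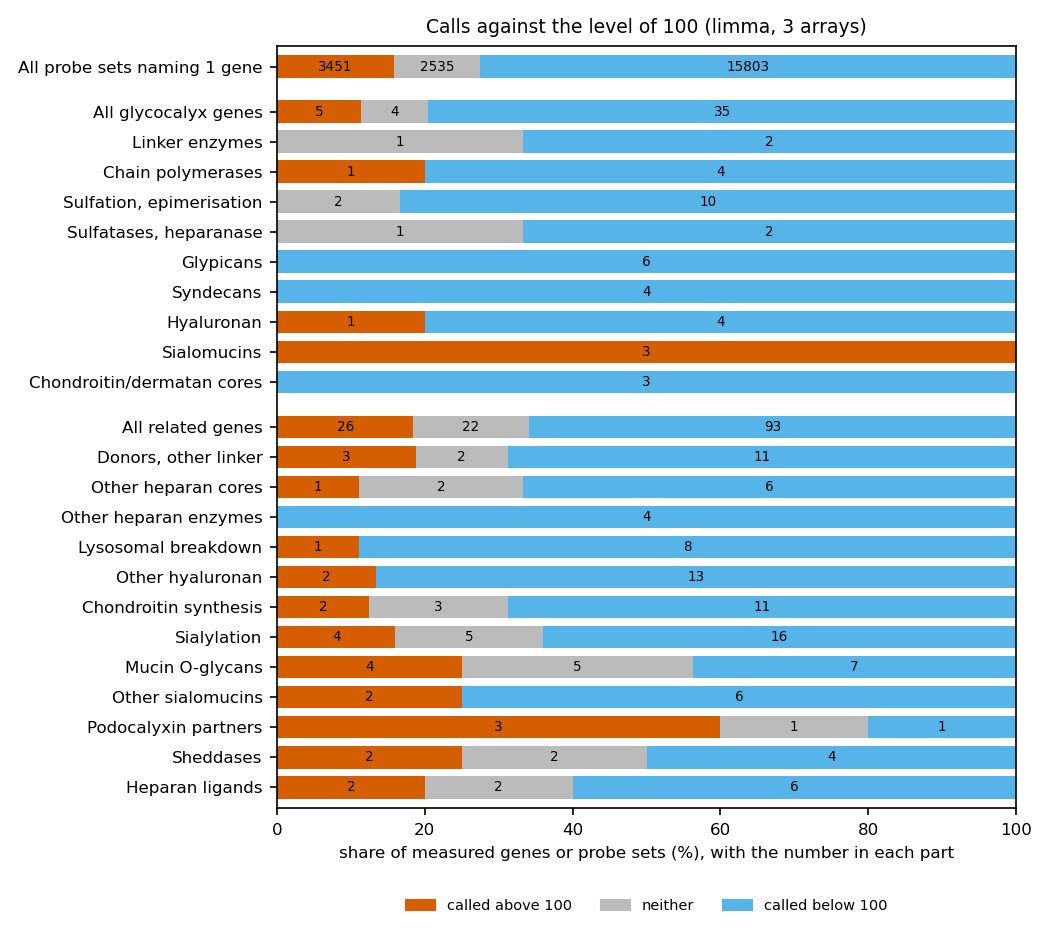
Share of measured genes (bars, %, with the number of genes in each part) called above, neither or below the level of 100 by limma over the 3 arrays, for the 21789 single-gene probe sets, the 44 glycocalyx genes by role and 141 related genes by list. Sialomucins are the role with all members above (3 of 3). The roles with none above are linker enzymes, sulfation and epimerisation, sulfatases and heparanase, glypicans, syndecans, and chondroitin or dermatan sulfate cores.

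Heparan sulfate synthesis, counted over linker, polymerisation and sulfation, had 1 of 20 measured genes (5.0%) above, 16 (80.0%) below and 3 neither. The shares over all probe sets were 15.8% above and 72.5% below. Among the linker enzymes, Xylt1 and Xylt2, which start the chain by adding xylose, were below at 5.77 and 5.02 on each array. B3gat3, which completes the linker, was neither at 6.42 on each array, with a 95% interval from 6.09 to 6.75 that includes the level. Of the exostosins, Ext2 was above, with 7.50, 7.65 and 7.65 (7.60 ± 0.08, adjusted p = 0.00198). Its partner in the polymerase, Ext1, had 5.42, 6.39 and 5.42 (5.74 ± 0.56), under the level on all arrays and highest on replicate 3. Its call below (adjusted p = 0.0280) was lost without replicate 1 or replicate 5 (adjusted p = 0.0968 in each case) and with the default variance prior (adjusted p = 0.0699). The exostosin-like genes Extl1, Extl2 and Extl3 were below, at 5.10, 5.00 and 4.65 ± 0.04.

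None of the 12 measured genes of deacetylation, epimerisation and sulfation was called above 100, while 10 (83.3%) were below and 2 neither. Ndst1, of the same role, was not analysed here, so the count does not cover it. Among all probe sets, 15.8% were above and 72.5% below. Glce, for the epimerase that turns glucuronic into iduronic acid, had 6.69 on each array, with a 95% interval from 6.36 to 7.01. It was called above with the default variance prior (adjusted p = 0.000596). Hs3st3b1, for a 3-O-sulfotransferase, had 6.57 on each array (interval from 6.24 to 6.89) and was called below with that prior (adjusted p = 0.000134). Its close paralog Hs3st3a1 had 3.94, 3.94 and 4.52, and since both encode a nearly identical catalytic domain, values of this pair are uncertain. Hs2st1, the only 2-O-sulfotransferase, was below at 6.10 on each array (adjusted p = 0.0118).

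Against a second, lower reference, isoforms of the same family fell on different sides. Olfactory receptor genes are not thought to be active in these cells, and the reference was the value that 95 percent of their 1035 probe sets do not pass. It lay at 4.85 (28.9 on the linear scale). Over all probe sets, 44.4% were called above it and 36.2% below. Of the 44 glycocalyx genes, 17 (38.6%) were above, 16 (36.4%) below and 11 neither, again near the background. Of the 6 podocyte markers, 3 were above it, among them Nphs1 and Wt1, and of the 8 leukocyte markers 2 were above it, Cd68 at 5.29 ± 0.03 and C1qa at 5.33 ± 0.04, with Ptprc neither. So were 2 of the 10 mesangial and stromal markers and 2 of the 8 tubule markers above this reference. The part of podocyte RNA in the signal of Podxl and of leukocyte RNA in that of Cd34 was not tested. Ndst2, for a deacetylase and sulfotransferase, was above this reference at 5.61 on each array, whereas Ndst3 at 3.44 and Ndst4 at 3.04 were below. Ndst1 of that family was not analysed here. Among 6-O-sulfotransferases, Hs6st1 had 5.78, 5.78 and 5.66 and was above, with Hs6st2 at 3.04 and Hs6st3 at 3.94 below. Of the 3-O-sulfotransferases among the glycocalyx genes, Hs3st3b1 was above, Hs3st1, the isoform best known for making the antithrombin site, and Hs3st3a1 were below, the former at 4.35, and Hs3st2 was neither at 5.20 ± 0.03. In the related list, Hs3st4 and Hs3st6 were above at 5.43 and 5.27, and Hs3st5 was below. The difference between isoforms was not tested, since it would set one probe set against another. Some of these values were also held by other genes. Ndst2 was 1 of 31 single-gene probe sets with its values, Hs3st1 1 of 6, Ndst4 and Hs6st2 each 1 of 139 and Hs6st3 1 of 172. Ndst3, Hs6st1, Hs3st2, Hs3st3a1 and Hs3st3b1 had values of their own.

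Heparan sulfate synthesis also needs donors. Of 16 genes for other linker steps, sugar and sulfate donors and their transporters, 3 were above 100, 11 below and 2 neither. These shares (18.75% above, 68.75% below) were near the 15.8% and 72.5% of all probe sets. Papss1, which makes the sulfate donor, had 7.07 on each array (adjusted p = 0.0259), Slc35b3, a transporter of that donor, 7.08 ± 0.19, and Ugp2, which makes UDP-glucose, 8.41 ± 0.02. The linker genes B4galt7 and B3galt6 were below, at 5.10 and 4.37 ± 0.14. Fam20b, the kinase of the linker xylose, was neither, with 7.03, 6.33 and 6.65. The 4 further heparan sulfate enzymes were all below, with Hs3st4 at 5.43 and Hs3st5 at 4.16 ± 0.01.

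Of the 10 syndecan and glypican genes, none was called above 100 and all were called below it, where 15.8% of all probe sets were above and 72.5% below. Among syndecans, Sdc4 had 5.86, 5.86 and 5.73 and Sdc3 had 5.93, 5.45 and 6.08, with replicate 3 lowest. Both were above the olfactory receptor reference (adjusted p = 0.00254 and 0.00820). Sdc1, the syndecan best known from epithelium and plasma cells, was at 5.21 on each array and called neither there (with an adjusted p just over 0.05), and Sdc2 was below both references at 3.54. Among glypicans only Gpc2 was above the lower reference, at 5.24 on each array (adjusted p = 0.0375). It was 1 of 33 single-gene probe sets with these values. Gpc1 at 5.21 was neither, also just over the threshold, and so was Gpc6 at 4.65. Gpc4 at 3.38 and Gpc5 at 3.84 were below. Gpc3 had 4.76 on replicate 1 against 3.83 and 3.79 on replicates 3 and 5. The mesangial and stromal markers, with 10 of 10 below 100, were also highest in sum on replicate 1, at 343 against 301 and 296 on the linear scale, with Itga8 at 6.08, 4.94 and 4.75. Their part in the value of Gpc3 was not tested.

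Other proteoglycans, most of them secreted or vesicular, were listed beside these cores, labelled as other heparan cores in the figures. Not all of them are heparan sulfate carriers, and which chains they carry in these cells was not measured. Of these 9 genes, 1 (11.1%) was above 100, 6 (66.7%) were below and 2 neither, against 15.8% and 72.5% of all probe sets. Srgn, for serglycin, a proteoglycan of secretory granules in endothelium and blood cells, had 11.87, 11.71 and 11.98 (11.85 ± 0.14, adjusted p = 6.88e-05). Hspg2, for perlecan of the basement membrane, was neither, with 6.67, 6.67 and 6.93, and so was Tgfbr3, for the membrane-spanning betaglycan, at 6.68 on each array. Agrn, for agrin, the main heparan sulfate proteoglycan of the glomerular basement membrane, was below at 5.55, 5.82 and 5.80, and Esm1, for endocan, at 5.33, 5.63 and 5.33.

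Chains are edited and removed after synthesis. The endosulfatase gene Sulf2, whose product takes 6-O-sulfate off finished chains outside the cell, had 6.09, 7.05 and 6.75 (6.63 ± 0.49). It was over the level on replicates 3 and 5 and under it on replicate 1, with a 95% interval from 5.99 to 7.27. Sulf1, with the same activity, had 4.10, 4.56 and 4.10, and Hpse, for heparanase, which cuts the chain, had 3.12 on each array, both below the olfactory receptor reference. Of 9 measured genes of lysosomal heparan sulfate breakdown, Ids, for iduronate sulfatase, was above 100 at 7.28 on each array, and the other 8 were below, among them Idua at 5.72. Of 8 proteases known to shed surface proteoglycans, 2 were above, 4 below and 2 neither. These counts and those of the lysosomal genes stand beside 15.8% above and 72.5% below over all probe sets. Adam10 had 8.91, 8.18 and 8.71 and Adam15 had 7.32, 7.40 and 7.32. Adam17, a sheddase of syndecans, had 8.61, 6.22 and 8.12, so that replicate 3 lay under the level and the others well over it, and it was called neither (adjusted p = 0.138).

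Of the 5 measured hyaluronan genes, 1 (20.0%) was above 100 and 4 (80.0%) were below, against 15.8% and 72.5% of all probe sets. The synthase genes Has1, Has2 and Has3 were below both references, at 3.97 ± 0.04, 3.56 and 4.30. Hyal2, for a membrane-anchored hyaluronidase, was above 100 on all arrays, with 7.36, 7.53 and 7.51 (7.47 ± 0.09, adjusted p = 0.00343). Cd44, a hyaluronan receptor of leukocytes and activated endothelium, was below 100 at 4.60 on each array. Of 15 further hyaluronan genes, 2 were above 100 and 13 below. Cemip2, for a membrane protein with reported hyaluronidase activity, had 7.82, 7.26 and 7.82 (adjusted p = 0.00619), and Layn, for the hyaluronan receptor layilin, had 7.96, 7.11 and 7.22. The call of Layn (adjusted p = 0.0273) was lost with the default variance prior (adjusted p = 0.0621). Hyal3 at 5.29 and Spam1, the sperm hyaluronidase, at 2.72 were below.

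Core proteins with chondroitin or dermatan sulfate were all below 100. Vcan, for versican, had 3.89 and Dcn, for decorin of fibroblasts, 3.30 on each array, and both were below the olfactory receptor reference as well. Bgn, for biglycan, had 6.11, 6.11 and 4.95 (5.72 ± 0.67), with replicate 5 lowest. Its call below 100 (adjusted p = 0.0403) was lost without replicate 1 (adjusted p = 0.0538) and with the default variance prior (adjusted p = 0.0953). Of 16 genes that make these chains, 2 (12.5%) were above, 11 (68.75%) below and 3 neither, near the 15.8% and 72.5% of all probe sets. Csgalnact1, which starts chondroitin sulfate, had 7.38 on each array. Chst14, a sulfotransferase of dermatan sulfate, had 8.08, 6.98 and 7.60, and its call (adjusted p = 0.0263) was lost with the default variance prior (adjusted p = 0.0665). Chsy1, a chondroitin polymerase gene, was neither at 6.51 ± 0.04.

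Proteins that heparan sulfate holds or presents were also listed, together with the anchor protein gene Gpihbp1. Of 10 genes, 2 were above 100, 6 below and 2 neither, where 15.8% of all probe sets were above and 72.5% below. Tfpi, for the inhibitor of the tissue factor pathway, had 7.85, 7.45 and 7.85, and Vegfa, whose longer forms bind heparan sulfate, 7.55 on each array. Gpihbp1, the capillary anchor of lipoprotein lipase, had 7.62, 5.56 and 7.94, and Lpl, the lipase itself, 5.99, 5.12 and 5.99. Both were lowest on replicate 3. The chemokine gene Cxcl12 stood the other way, at 5.64, 6.86 and 5.64.

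**Figure D3:**
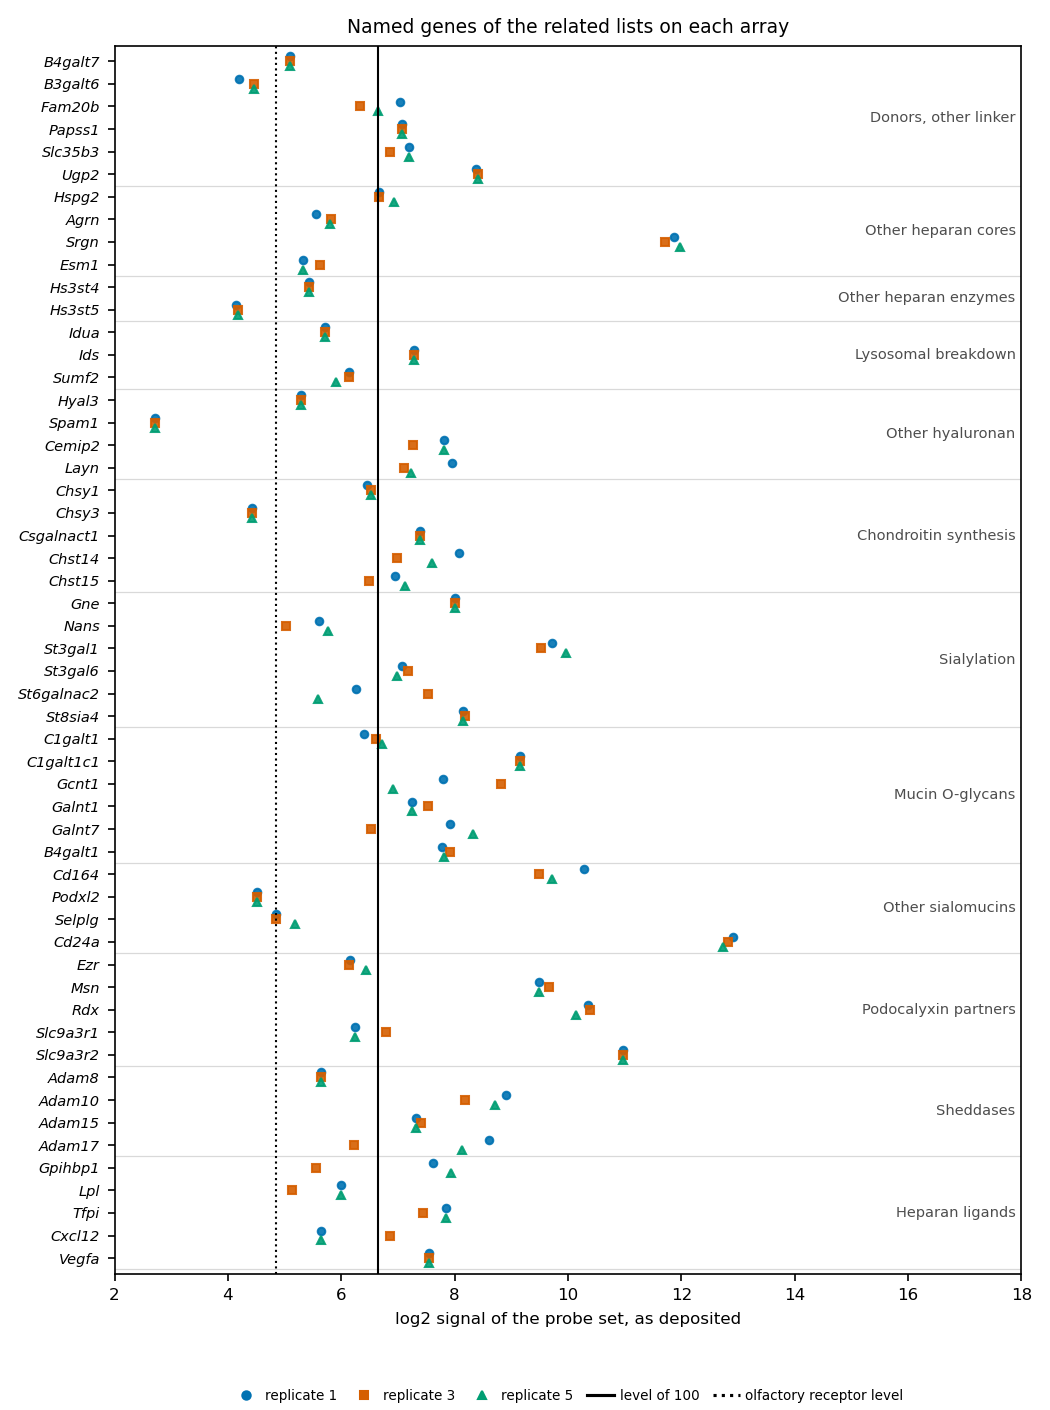
Log2 signal of the named genes of the 12 related lists (rows, grouped by list) on replicates 1, 3 and 5 (points), with the level of 100 at 6.64 (solid line) and the level of olfactory receptor probe sets at 4.85 (dotted line). Replicate 3 lies apart from the other arrays for Adam17 (6.22 against 8.61 and 8.12), Gpihbp1 (5.56 against 7.62 and 7.94) and Galnt7 (6.53 against 7.92 and 8.32).

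Of the 44 glycocalyx genes, 27 had the same value on all arrays (within 1e-09), as had 54.1% of all probe sets. The spread over the arrays is then 0, and its error is carried by the variance prior of limma alone. Also, 20 of the 44 shared all their values with at least 1 other single-gene probe set (45.5%, against 47.5% over all such probe sets). Has2 was 1 of 191 probe sets with these values, Dcn 1 of 182 and Cd44 1 of 132, so such values do not set these genes apart from many others near background. Genes above the olfactory receptor reference also shared values, with Ndst2 1 of 31 and Gpc2 1 of 33. The 5 genes called above 100 had values of their own, and none of them was the same on all arrays.

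The range over the arrays passed 2-fold (1 on the log2 scale) for 1 of the 44 genes (2.27%), Bgn at 1.16, against 5.73% of all probe sets. Ext1, Gpc3 and Sulf2 lay just under, at 0.97, 0.97 and 0.96. After the arrays were centred on a common median or quantile normalized again, Ext1 and Sulf2 were over it too, which made 3. Emcn, Cd34 and Sdc3 were lowest on replicate 3, as were 8 of the 10 endothelial markers, and Ext1, Sulf1, Sulf2 and Hyal2 were highest there. Whether the lower endothelial signal of that array plays a part in these values was not tested. The median deviation of the 17 genes from their mean over the arrays was -0.02, 0.02 and 0.04 on replicates 1, 3 and 5, with -0.01, 0.00 and -0.00 over all 9998 probe sets whose values were not the same.

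**Figure D4:**
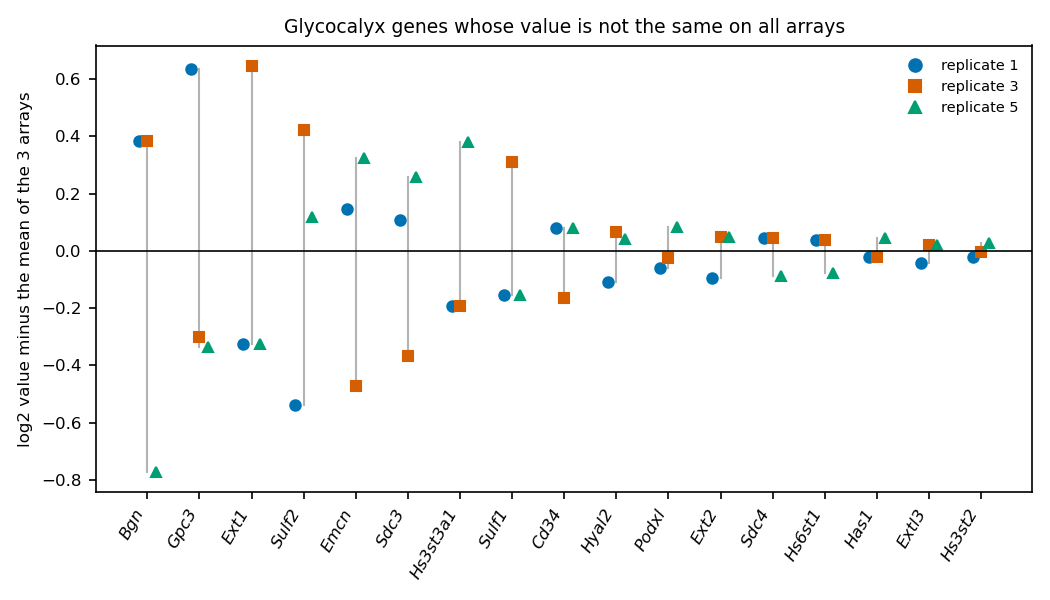
Deviation of each array from the mean of the 3 arrays (vertical axis, log2 units) for the 17 glycocalyx genes whose value is not the same on all arrays, ordered by range, with replicates 1, 3 and 5 as points joined by a line. Bgn has the widest range, 1.16, and replicate 3 is the lowest array for Emcn, Sdc3 and Cd34 and the highest for Ext1, Sulf2, Sulf1 and Hyal2.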

How the data were processed

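The authors deposited 1 log2 signal for each probe set, measured on the Mouse Gene 1.0 ST array from Affymetrix. RNA was amplified in a single round. The software in the submitters' processing notes is Affymetrix Expression Console (version not given in the sources used here). RMA is what the study names for its own analysis. It is unclear from the sources which set of arrays was normalized jointly, and levels could then depend on further arrays. Values ranged from 1.39 to 14.40, with medians of 4.85, 4.80 and 4.79 on replicates 1, 3 and 5.

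Probe sets were named by the platform annotation. Of 35557, 21789 name 1 gene, 1621 several and 12147 none there, and only the first kind was tested. By Entrez identifier, 21698 matched RefSeq (GRCm38.p6), and no symbol changed. Bpnt2, listed as Impad1, was found by its older symbol. The probe set with the highest mean stood for a gene with several.

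An intercept-only model was fitted with limma 3.58.1 in R 4.3.3. The moderated statistic compared the mean with the log2 value of 100 in a two-sided test, p-values were adjusted over all 21789 probe sets by Benjamini-Hochberg, and the threshold was 0.05. Because 54.1% of probe sets hold 1 value on all arrays, only the 4406 whose 3 values all differ were used for the variance prior, which had an SD of 0.288 on 2.03 degrees of freedom. The fit was tested on simulated data. Where the values differ between arrays, the p-values reflect the variance prior and the spread of 3 samples, some of which may be technical. For a gene with the same value on all arrays, as for 27 glycocalyx genes, they rest on the prior alone and reflect no spread of samples.

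The genes, lists and tests were chosen with earlier results of these data known. Of the related lists, 141 of 142 genes were measured, and of the marker lists 42 of 44. All glycocalyx genes could be named, with from each related list the first 2 genes, up to 4 above the level with the highest means and up to 2 with the widest ranges, and from each marker list the first 3 genes and exceptions. Cd68, C1qa, Hs3st6 and Tgfbr3 were named after their values were seen. Alternatives were the default variance prior, other levels (50, 200 and the olfactory receptor level), 2 further normalizations, a filter on low values, the mean over the probe sets of a gene and leaving out each replicate.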

Additional observations from a re-analysis of the deposited data

How the results depend on the processing

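The level decides the counts. Against the olfactory receptor level, 17 of 44 glycocalyx genes (38.6%) were above and 16 (36.4%) below. Of 141 related genes, 88 (62.4%) were above and 35 (24.8%) below. Over all 21789 probe sets, 44.4% were above this level and 36.2% below. Against 50, 10 glycocalyx and 52 related genes were above, and 56 related genes below. Of all 21789 probe sets, 6238 were above 50 and 11978 below. Against 200, 3 glycocalyx genes (Cd34, Emcn and Podxl) and 12 related genes were above, beside 1819 of all 21789 probe sets. With only the 12068 probe sets over the olfactory receptor level on an array tested, 15 glycocalyx and 45 related genes were below, since fewer genes were tested. Of these 12068 probe sets, 5906 were below. Without replicates 1, 3 or 5, the glycocalyx genes above numbered 5 in each case, those below 33 to 35, the related genes above 22 to 29 and those below 91 to 93. Of all 21789 probe sets, 3245 to 3681 were then above and 15563 to 15930 below. The number of glycocalyx genes that differ by over 2-fold between arrays was 3 with centred or quantile normalized arrays, against 1, and 0 to 1 with a replicate left out, as only Bgn on replicate 5 met it.

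A change of level turns the sign of genes between the levels by construction. Against the olfactory receptor level, the mean minus the level (log2) was 0.91 for Xylt1, 0.17 for Xylt2, 1.56 for B3gat3, 0.89 for Ext1, 0.25 for Extl1, 0.14 for Extl2, 0.76 for Ndst2, 1.25 for Hs2st1, 0.34 for Hs3st2, 1.71 for Hs3st3b1, 0.89 for Hs6st1, 1.78 for Sulf2, 0.35 for Gpc1, 0.39 for Gpc2, 0.35 for Sdc1, 0.97 for Sdc3, 0.97 for Sdc4 and 0.87 for Bgn. Against 50 it was 0.12 for Xylt1, 0.78 for B3gat3, 0.10 for Ext1, 0.46 for Hs2st1, 0.92 for Hs3st3b1, 0.10 for Hs6st1, 0.99 for Sulf2, 0.18 for Sdc3, 0.18 for Sdc4 and 0.077 for Bgn. Against 200 it was -0.046 for Ext2, -0.96 for Glce and -0.18 for Hyal2. With a replicate left out, Sulf2 ranged from -0.22 to 0.26 against 100 and turned above it without replicate 1, still called neither (adjusted p = 0.199). Without replicate 1, Ext1 and Bgn lost their calls, and Ext1 did so without replicate 5. All 44 genes kept their call under both further normalizations and with the mean over probe sets, and without replicate 3. With the default variance prior, 39 kept it, B3gat3, Glce and Hs3st3b1 gained a call, and Ext1 and Bgn lost theirs.

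No paired analysis was possible because all arrays form 1 group. A gene called below 100 is not shown to be silent, and 3 arrays limit the precision.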
